A study of Rattus norvegicus with 12 samples.

Results

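The genes described here move iron into, through and out of a cell. They are Tf, Tfrc, Slc11a2, Fth1, Ftl1, Ncoa4, Slc40a1, Cp, Aco1 and Ireb2, 10 of the 30562 genes of a count table of oligodendrocyte precursor cells (OPCs). They were taken by symbol, and where a symbol stood on more than 1 row the row with the highest total count was kept, which applied to Ncoa4 and Ftl1. The cells were primary OPCs from the cortex of newborn wild-type Sprague-Dawley rats. They were grown in mixed glial cultures with serum, shaken off, and then kept in serum-free medium with FGF-2, PDGF-AA and B27, a supplement that itself supplies transferrin protein. Mild-hypo-OPCs (6 libraries) were kept at an FiO2 of 5%, for 6 hours by the labels and for 6 days by the study's methods, and standard OPCs (6 libraries) were kept in room air. The labels do not say whether the libraries of a group came from separate cultures, and a figure legend of the study counts fewer biological replicates than the libraries deposited, so the p-values measure the spread between these libraries, which may be partly technical. The comparison asks whether mild hypoxia changed the RNA levels of iron genes.

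Iron reaches most cells bound to transferrin (Tf), which is taken up by its receptor (Tfrc), and the freed metal leaves the endosome through the transporter Slc11a2. Inside the cell it is stored in the ferritin shell, built of a heavy (Fth1) and a light (Ftl1) chain, from which the receptor Ncoa4 returns it by autophagy, and it is exported by ferroportin (Slc40a1) with the help of the copper oxidase ceruloplasmin (Cp). The iron regulatory proteins encoded by Aco1 and Ireb2 bind ferritin and Tfrc mRNAs and adjust storage against uptake, and oligodendrocytes are known as iron-rich cells of the brain whose enzymes for myelin lipids need the metal.

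Of the 10 genes, 9 passed the filter on low counts (more than 10 CPM, the count scaled by library size, in 1 or more libraries) and Slc40a1 did not. In edgeR's quasi-likelihood test at an adjusted p under 0.05, 0 of the 9 were called higher in mild-hypo-OPCs, against 7.0% of all 8938 genes tested, and 1 was called lower, against 17.0%. At an unadjusted p under 0.05 from edgeR, Fth1 and Ftl1 had a negative and Aco1 and Ireb2 a positive log2 fold change. The share of all genes at that unadjusted threshold was not counted, so these 4 are not a result about iron genes. The ranges of the 2 groups overlapped for each of the 9 genes, whereas they did not overlap for 8.35% of all genes tested. The median log2 fold change of the 9 genes was 0.11 and that of all genes tested was -0.0031. With libraries scaled by their size alone, in place of edgeR's TMM factors, the median of all genes moved to 0.43 and no gene of the 9 had a negative value, with 6 of the 9 called higher and 0 lower, where 61.7% of all genes tested were called higher and 4.53% lower. A positive log2 fold change means a higher level in mild-hypo-OPCs, CPM values are TMM-scaled, and levels of different genes are not compared because counts depend on transcript length.

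**Figure D1:**
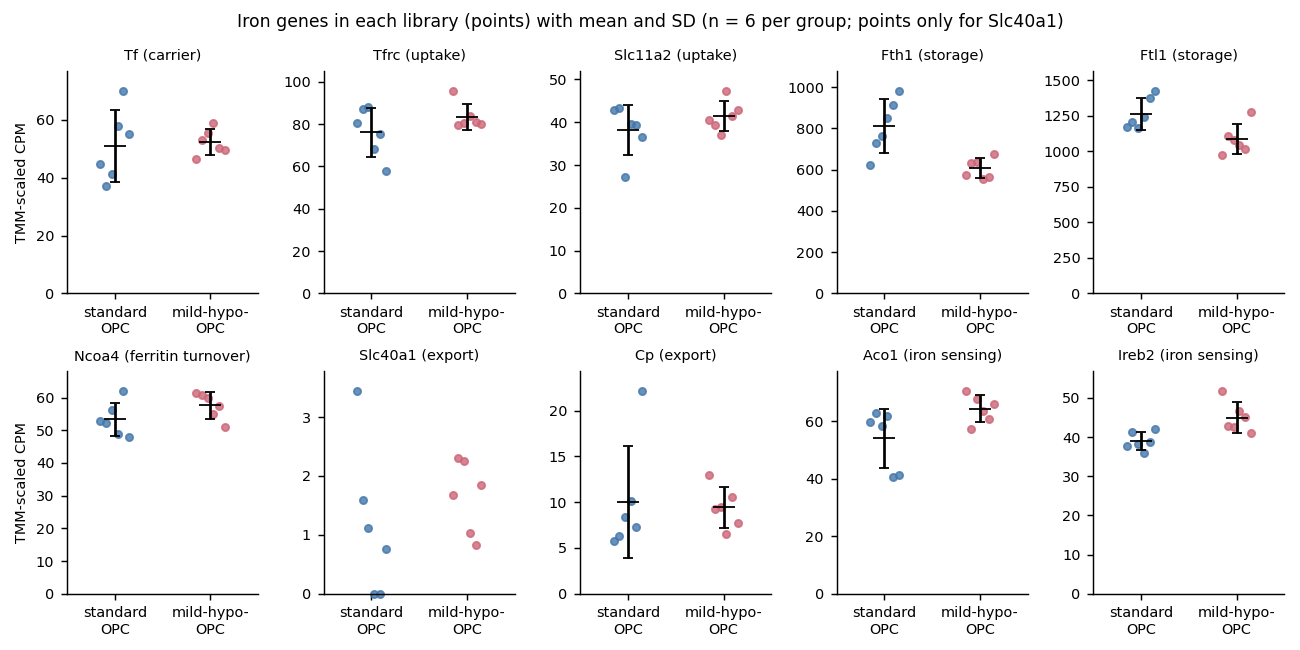
TMM-scaled CPM (vertical axes, from 0) of the 10 iron genes in 6 standard OPC and 6 mild-hypo-OPC libraries. Points are libraries and bars give the mean and SD, except for Slc40a1, which is shown as points only. Of the 6 standard OPC libraries, 5 lie above all mild-hypo-OPC libraries for Fth1, a difference that is absent with library-size scaling.

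Several facts of the libraries bear on these values. Libraries of mild-hypo-OPCs held 4111669 to 9022324 counts and those of standard OPCs 1356079 to 2797513, so depth and condition cannot be told apart. Ribosomal RNA genes took 17.4% to 25.2% of the counts in the former and 23.9% to 38.4% in the latter. All 6 OPC markers and all 7 oligodendrocyte markers were detected above the filter. The OPC markers summed to between 2550 and 2868 CPM per mild-hypo-OPC library and between 2271 and 2843 CPM per standard OPC library, with 0 called, and the oligodendrocyte markers to 12559 to 13834 and 8603 to 12421 CPM with 4 of 7 called higher (Mag, Cnp and Myrf among them). Markers of astrocytes summed to 815 to 947 and 747 to 847 CPM (2 of 6 tested called higher, Aqp4 and Slc1a3). Of those not called, Gfap (0.12) and Gja1 (0.09) had positive and Slc1a2 (-0.27) and Aldoc (-0.12) negative log2 fold changes. Markers of microglia, which also handle iron, summed to 61.9 to 87.0 and 36.8 to 64.4 CPM, with 5 of 10 tested, 3 higher and 1 lower. Neuron markers summed to 141 to 160 and 82.0 to 119 CPM (4 of 7 tested, 2 higher). Among all genes tested 7.0% were called higher and 17.0% lower. Endothelial and mesenchymal markers summed to at most 3.91 CPM, with Lum at 0 in every library, and those of choroid plexus and ependyma to at most 1.67 CPM. With log2 total count as a covariate, 0 markers of these lists were called, in a fit that called 0 genes higher and 43 lower of all 8938. In bulk samples, fewer cells of a type and less RNA per cell cannot be told apart.

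The ferritin heavy chain gave the call. Fth1 (ENSRNOG00000022619), the chain that oxidises iron as it enters the shell, had 557, 566, 576, 632, 637 and 677 CPM in the mild-hypo-OPC libraries, in rising order, and 623, 730, 763, 852, 911 and 982 CPM in the standard OPC libraries. Of the standard OPC libraries 5 lay above every mild-hypo-OPC library, and replicate 1, the deepest of them, lay among the mild-hypo-OPCs. The mean of mild-hypo-OPCs was 607 ± 48.1 CPM (SD, n = 6) against 810 ± 130 CPM (SD, n = 6) for standard OPCs, and the log2 fold change of -0.41 (standard error 0.10, 95% interval -0.62 to -0.21, adjusted p = 0.00545 from edgeR) became 0.030 with library-size scaling. The call rested on 2717 to 5518 Fth1 counts in each mild-hypo-OPC library against 926 to 1629 in each standard OPC library, and it was made in each of the 12 fits that left out 1 library (-0.48 to -0.35). It was not made in replicates 1 to 3 alone (-0.18, adjusted p = 0.415 from edgeR) and it was made in replicates 4 to 6 (-0.60, adjusted p = 0.000306 from edgeR). The difference between these subsets of libraries was not tested.

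The ferritin light chain had the same sign and did not pass the threshold. Ftl1 (ENSRNOG00000064385), which supports mineral formation inside the shell, had 975, 1017, 1046, 1083, 1109 and 1280 CPM in mild-hypo-OPCs and 1162, 1172, 1206, 1242, 1378 and 1427 CPM in standard OPCs. Of the mild-hypo-OPC libraries 5 lay below every standard OPC library and replicate 6 lay within their range. The log2 fold change was -0.22 (standard error 0.08, 95% interval -0.40 to -0.04, adjusted p = 0.0650 from edgeR), and 0.22 with library-size scaling. A call was made by limma-voom (adjusted p = 0.0375) and by DESeq2 (adjusted p = 0.0492).

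Ferritin genes have many processed copies, and reads can be shared with them. The annotated copy Fth1-ps5 (ENSRNOG00000033100) had 50 to 88 counts per library under mild hypoxia against 22 to 42 in room air, 1.46% to 3.07% of the Fth1 count, and was lower by edgeR (log2 fold change -0.70, standard error 0.22, adjusted p = 0.0274). Ftl1l1 and Ftl1-ps14 reached no more than 8 and 19 counts per library, and the other row named Ftl1 (ENSRNOG00000020843) at most 1. With the copies added to their parents Fth1 changed by -0.42 and Ftl1 by -0.22, so the split of reads among the rows counted here moved neither value by more than 0.01.

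Ferritin levels were set against depth within each group. Over the 6 standard OPC libraries, Fth1 CPM and log2 total count had a Pearson r of -0.88 (exact permutation p = 0.0250, adjusted p = 0.1 over 4 relations) and a Spearman rho of -0.83 (exact permutation p = 0.0583, adjusted p = 0.233), and r was -0.99 without the 2 libraries farthest from the median total. Over the 6 mild-hypo-OPC libraries r was -0.15 (exact permutation p = 0.911, adjusted p = 0.911) and rho was 0.14 (exact permutation p = 0.803). For Ftl1, r was -0.68 (exact permutation p = 0.169, adjusted p = 0.278) in standard OPCs and -0.50 (exact permutation p = 0.208, adjusted p = 0.278) in mild-hypo-OPCs. None of these relations passed the adjusted threshold. Once the total count (log2) entered edgeR as a covariate, the log2 fold change of Fth1 was 0.015 (adjusted p = 0.998) and that of Ftl1 was 0.072 (adjusted p = 0.970), a fit in which 0 of all 8938 genes were called higher and 43 lower. When every library was instead thinned to the smallest total count, Fth1 had -0.41 (adjusted p = 0.00862 from edgeR) and remained called, and Ftl1 had -0.23 (adjusted p = 0.0904 from edgeR).

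**Figure D2:**
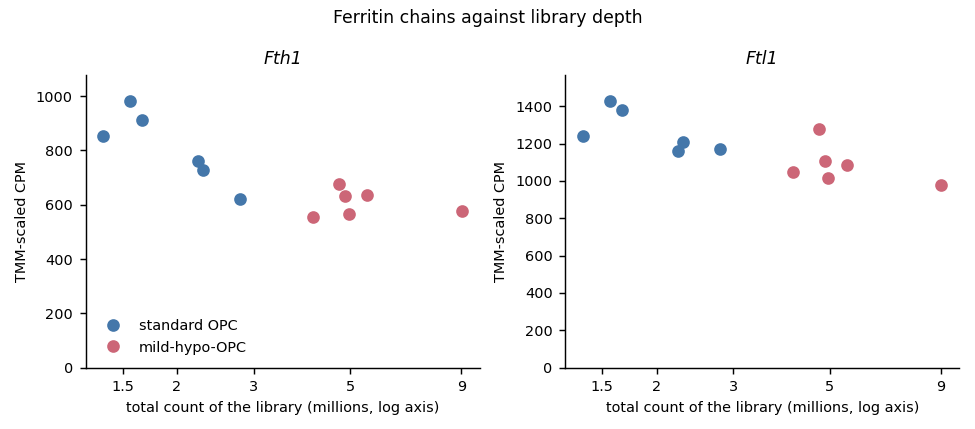
TMM-scaled CPM of Fth1 and Ftl1 (vertical axes, from 0) against the total count of each library (horizontal log axis). Each point is 1 library, and the 6 standard OPC libraries are all shallower than the 6 mild-hypo-OPC libraries, and Fth1 is lowest among them, at 623 CPM, in the deepest.

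Both ferritin genes are short. In RefSeq, Fth1 spans 2289 bp and Ftl1 1848 bp, and across all genes tested the comparison moved with gene span. Of the 950 genes tested under 5 kb, 42.2% were called lower and 3.37% higher, with a median log2 fold change of -0.32. Of the 2182 genes of 60 kb and over, 5.77% were called lower and 8.34% higher, with a median of 0.06. Fth1 (-0.41) and Ftl1 (-0.22) stood on either side of the median of the short class. When the trend of log2 CPM on span was removed in each library, Fth1 had a log2 fold change of -0.066 (adjusted p = 0.507 from limma) and Ftl1 of 0.15 (adjusted p = 0.0850 from limma), a setting chosen after the data were seen. The other 7 genes tested spanned over 20 kb, and in that setting their values lay between -0.036 for Cp and 0.19 for Aco1.

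**Figure D3:**
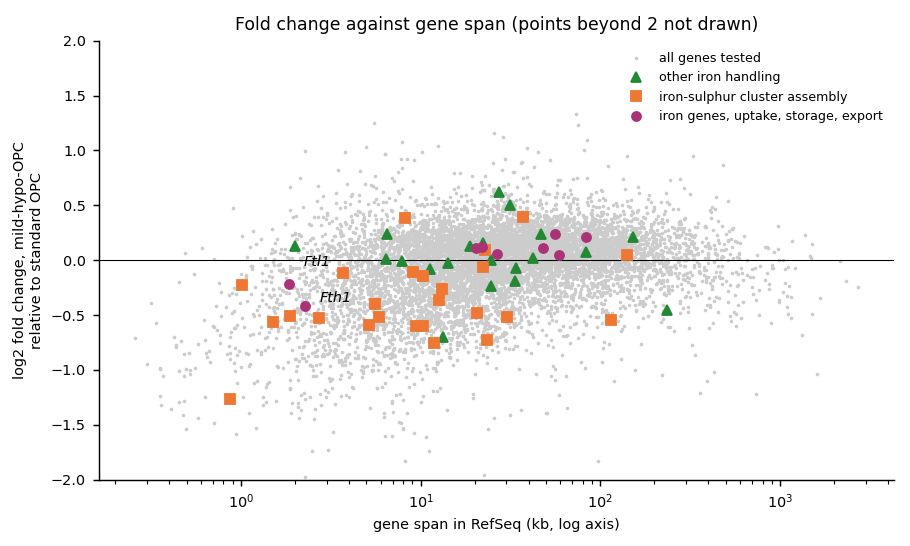
Log2 fold change (vertical axis) against gene span in RefSeq (horizontal log axis, kb) for all genes tested (grey), the iron genes and 2 further lists. Fth1 (-0.41) and Ftl1 (-0.22), which had 0.030 and 0.22 with library-size scaling, lie among short genes whose median was -0.32.

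None of the uptake genes was called. Transferrin itself, made in the brain chiefly by oligodendrocytes and choroid plexus, was present as Tf (ENSRNOG00000030625) mRNA at 46.5, 49.4, 50.1, 52.9, 55.5 and 58.8 CPM in mild-hypo-OPCs and at 37.0, 41.2, 44.7, 55.0, 58.0 and 70.0 CPM in standard OPCs. The mild-hypo-OPC values lay inside the wider standard OPC range, and within that group replicates 1 to 3 were the 3 lowest. The log2 fold change was 0.06 (standard error 0.12, 95% interval -0.20 to 0.32, adjusted p = 0.771 from edgeR). In replicates 1 to 3 and in replicates 4 to 6 taken alone no call was made, and the values were 0.34 and -0.21. Oligodendrocyte markers had a positive log2 fold change in 7 of 7 cases and were called higher in 4 (against 7.0% of all genes). Their part in the Tf value was not tested.

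The transferrin receptor was higher in mean by less than the SD of the standard OPC libraries. Tfrc (ENSRNOG00000001766) had 79.8, 80.0, 80.4, 80.8, 84.0 and 95.7 CPM in mild-hypo-OPCs and 58.0, 68.1, 75.3, 80.7, 87.1 and 87.9 CPM in standard OPCs. Each mild-hypo-OPC library exceeded the standard OPC mean of 76.2 ± 11.6 CPM (SD, n = 6), and the ranges overlapped. The log2 fold change was 0.12 (standard error 0.10, 95% interval -0.08 to 0.32, adjusted p = 0.395 from edgeR), and the value was -0.30 once the total count (log2) entered as a covariate. The endosomal iron transporter Slc11a2 (ENSRNOG00000019550) had 37.1 to 47.3 CPM (median 41.0) in mild-hypo-OPCs, against 27.2 to 43.3 CPM (median 39.4) in standard OPCs, with a log2 fold change of 0.11 (95% interval -0.11 to 0.33, adjusted p = 0.483 from edgeR). The standard OPC minimum of Slc11a2 was replicate 3, and the other 5 libraries of that group began at 36.6 CPM.

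Ncoa4, the receptor that carries ferritin to the lysosome, stood on a pair of Ensembl rows. The row used (ENSRNOG00000063221) had 50.9 to 61.4 CPM (median 58.8) in mild-hypo-OPCs and 48.1 to 62.0 CPM (median 52.5) in standard OPCs, ranges that overlapped almost fully. Its log2 fold change was 0.11 (standard error 0.09, 95% interval -0.07 to 0.29, adjusted p = 0.388 from edgeR). The other row (ENSRNOG00000019768) held 76.9% to 94.9% as many counts and gave 0.06 (adjusted p = 0.670 from edgeR), so the 2 rows may share reads, and neither was called.

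Export genes were measured thinly. Ferroportin, the iron exporter, had 5 to 16 Slc40a1 (ENSRNOG00000003872) counts in each mild-hypo-OPC library, 63 in all, against 0 to 9 in each standard OPC library, 15 in all. Standard OPC replicates 4 and 5 had 0 counts, which allows up to 2.76 and 2.0 CPM, and the highest library of the 12, at 3.44 CPM, was standard OPC replicate 1. These limits cover counting error only, and the highest mild-hypo-OPC library had 2.31 CPM. In a fit without the filter the log2 fold change was 0.24 (95% interval -0.78 to 1.26, adjusted p = 0.789 from edgeR), so a change of less than 1 on the log2 scale was not detectable at this depth. Cp (ENSRNOG00000011913), whose oxidase activity loads exported iron onto transferrin and which astrocytes also express, had 32 to 124 counts under mild hypoxia, against 11 to 29 in room air. It ranged from 6.56 to 12.9 CPM (median 9.35) and from 5.74 to 22.1 CPM (median 7.84), where 22.1 CPM in standard OPC replicate 6 stood apart and the next highest was 10.1 CPM. Its log2 fold change was 0.05 (95% interval -0.52 to 0.62, adjusted p = 0.920 from edgeR) and lay between -0.64 (replicates 4 to 6) and 0.70 (replicates 1 to 3), so its direction was not determined, and the part of astrocytes in it was not tested.

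The iron regulatory proteins had positive values that did not pass the threshold. Aco1 (ENSRNOG00000005849), a cytosolic aconitase that becomes an RNA-binding protein when it loses its iron-sulphur cluster, had 57.4, 60.9, 63.5, 65.8, 67.7 and 70.4 CPM in mild-hypo-OPCs and 40.7, 41.2, 58.4, 59.6, 61.7 and 62.8 CPM in standard OPCs. The standard OPC libraries fell into a low pair (replicates 5 and 6) and 4 values close to the lower mild-hypo-OPC libraries. Its log2 fold change was 0.24 (standard error 0.11, 95% interval 0.02 to 0.46, adjusted p = 0.11 from edgeR). Ireb2 (ENSRNOG00000013271), which is removed by a ubiquitin ligase when iron and oxygen are plentiful, had 40.9, 42.5, 42.8, 45.1, 46.7 and 51.7 CPM in mild-hypo-OPCs and 35.9, 37.9, 38.4, 38.7, 41.2 and 42.0 CPM in standard OPCs. For Ireb2, 5 of 6 mild-hypo-OPC libraries lay above every standard OPC library. The log2 fold change was 0.21 (standard error 0.09, 95% interval 0.02 to 0.40, adjusted p = 0.0973 from edgeR). Both passed with upper-quartile scaling (Aco1 0.31 and Ireb2 0.28, adjusted p = 0.0454 and 0.0275 from edgeR). That setting called 12.7% of all genes higher. Both were close to or below 0 with log2 total count as a covariate (-0.087 and -0.0077).

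**Figure D4:**
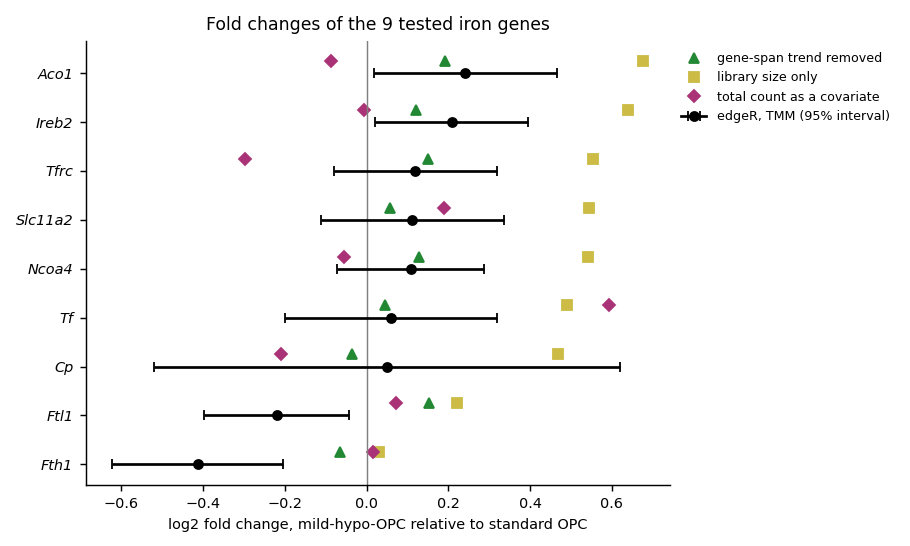
Log2 fold change (horizontal axis, mild-hypo-OPC relative to standard OPC) of the 9 tested iron genes. Circles with bars are edgeR estimates with TMM scaling and 95% intervals, squares are library-size scaling, diamonds log2 total count as a covariate and triangles the fit with the gene-span trend removed. Fth1 has -0.41 with TMM scaling, 0.030 with library-size scaling, 0.015 with the covariate and -0.066 with the span trend removed.

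Ratios of counts within a library do not depend on scaling, and 5 were compared with two-sided exact permutation tests adjusted over the 5. The trend with gene span can remain in a ratio of genes that differ in span, as Tfrc (21841 bp) and Fth1 (2289 bp) do. With that trend removed their log2 fold changes were 0.15 and -0.066. The log2 ratio of Tfrc to Fth1, uptake against storage, was -3.08, -2.99, -2.98, -2.81, -2.73 and -2.59 in mild-hypo-OPCs and -4.07, -3.64, -3.59, -3.11, -3.06 and -2.95 in standard OPCs. Each of the 6 mild-hypo-OPC libraries exceeded the standard OPC mean, the ranges overlapped, and the difference of 0.54 missed the threshold (exact permutation p = 0.0195, adjusted p = 0.0595). The log2 ratio of Fth1 to Ftl1, heavy against light chain, was -0.84 ± 0.07 (SD, n = 6) under mild hypoxia and -0.65 ± 0.14 (SD, n = 6) in room air, a difference of -0.18 with 6 of 6 mild-hypo-OPC libraries below the standard OPC mean (exact permutation p = 0.0238, adjusted p = 0.0595). Standard OPC replicate 1 lay at -0.91, among the lowest of the 12 libraries, and without that library both differences passed the threshold (0.63 and -0.23, exact permutation adjusted p = 0.0216 for each). In the 11 other comparisons that left out 1 library neither passed, with exact permutation adjusted p up to 0.119 for each. The Tfrc to Fth1 difference was 0.19 in replicates 1 to 3 and 0.90 in replicates 4 to 6, and that of Fth1 to Ftl1 was -0.031 and -0.33.

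The other 3 ratios differed by less than the SD of the standard OPC libraries. The log2 ratio of Tf to Tfrc, ligand against receptor, differed by -0.08 (exact permutation p = 0.721). That of Aco1 to Ireb2 differed by 0.07 (exact permutation p = 0.626, adjusted p = 0.721). Tf against Mbp, the myelin basic protein gene of the same lineage, differed by -0.24 (exact permutation p = 0.227, adjusted p = 0.379). That difference exceeded the mild-hypo-OPC SD of 0.13 and not the standard OPC SD of 0.44. All 6 mild-hypo-OPC libraries lay below the standard OPC mean. In standard OPCs the Tf to Tfrc ratio was -1.23 to -0.85 in replicates 1 to 3 and -0.23 to -0.08 in replicates 4 to 6, while the mild-hypo-OPC libraries lay from -1.04 to -0.51, 5 of them between these ranges and replicate 1 within the first.

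**Figure D5:**
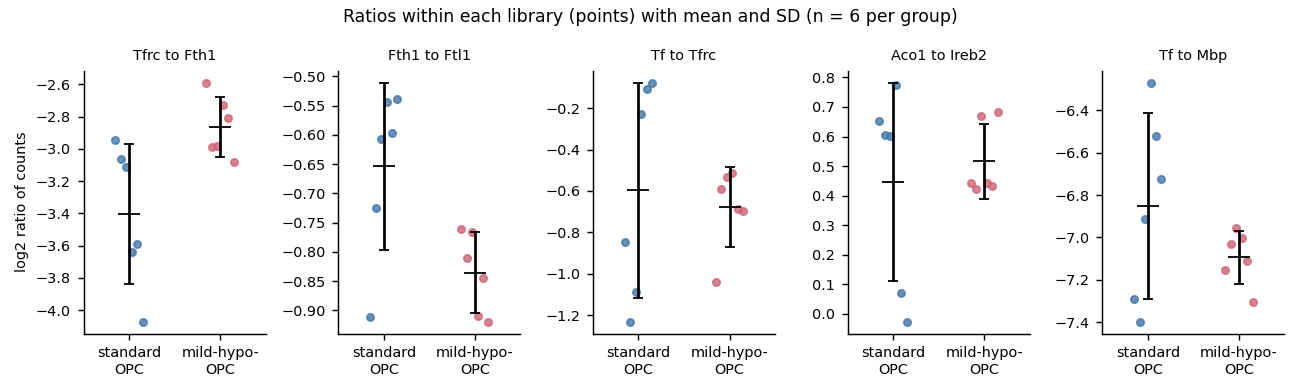
Log2 ratios of counts of gene pairs within each library (vertical axes, which do not start at 0), with points for libraries and bars for the mean and SD of 6 libraries per group. For Tfrc to Fth1 the mean is -2.86 in mild-hypo-OPCs and -3.40 in standard OPCs, with overlapping ranges. Tfrc spans 21841 bp and Fth1 2289 bp, and the trend with gene span can remain in their ratio.

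Promoter sequences were read for the genes because hypoxia-inducible factors bind a short core, ACGTG or GCGTG, and Tfrc is among their known targets. RefSeq windows of 250 bases before to 50 after the start (GRCr8, a later build than that of the counts) were found for 8 of the 10 genes, those other than Fth1 and Ftl1. On either strand, ACGTG was found in 2 of the 8 and GCGTG in 4, and 4 of the 8 held either, against 19.3%, 29.7% and 41.6% of all 33469 windows. The counts are by gene and the shares by window, so they are not strictly alike. The 8 genes had 9 windows, and the further window of Slc11a2 held neither motif. The 100 bases holding the matches are printed for 3 genes, which stand for uptake, ferritin turnover and iron sensing. Capitals mark a core or the reverse complement of a core, and none of the matches lies in CACGTG. The Tfrc stretch is chr11:81690319-81690418 on the minus strand, the Ncoa4 stretch chr16:7401691-7401790 on the plus strand and the Aco1 stretch chr5:60055695-60055794 on the plus strand.
Tfrc: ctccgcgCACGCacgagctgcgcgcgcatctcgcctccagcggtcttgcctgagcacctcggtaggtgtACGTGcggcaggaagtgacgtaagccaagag
Ncoa4: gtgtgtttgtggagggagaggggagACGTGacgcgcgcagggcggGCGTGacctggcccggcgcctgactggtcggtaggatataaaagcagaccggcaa
Aco1: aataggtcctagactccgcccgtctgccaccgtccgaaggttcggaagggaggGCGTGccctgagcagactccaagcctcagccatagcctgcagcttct
In Tfrc, ACGTG lies 31 bases before the start and CACGC, the reverse complement of GCGTG, 93 bases before. In Ncoa4, ACGTG and GCGTG lie 75 and 55 bases before, with a CACGC 7 bases after the start that is not printed, and in Aco1 GCGTG lies 147 bases before. A window of Slc11a2 held CACGC 165 bases before the start, and those of Tf, Slc40a1, Cp and Ireb2 held neither motif. Matches of 5 letters are descriptions of these windows. None of the 8 genes with a window was called, with or without a match, so calls cannot be set against matches.

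A list of 40 further genes of iron handling had 20 tested, with a median log2 fold change of 0.02. Of these, 3 were called higher (15%, against 7.0% of all genes) and 2 lower (10%, against 17.0%). The higher genes were Hmox1, which releases iron from haem (0.63, adjusted p = 0.000361 from edgeR), Abcb10, a mitochondrial transporter of the haem pathway (0.50), and Slc22a17, a receptor for iron-binding lipocalin (0.24). Hmox1 had 32.4 to 36.9 CPM under mild hypoxia against 17.4 to 26.7 CPM in room air, so its ranges did not overlap. Markers of microglia, which also express this enzyme, had higher sums as well, with Csf1r, Cd68 and C1qb called higher, Tyrobp called lower (-0.69) and C1qa not called (0.59) among the 5 tested, and their part in the Hmox1 value was not tested. The lower genes were Cisd1, an iron-sulphur protein of the outer mitochondrial membrane (-0.70), and Herc2, a ubiquitin ligase that acts on NCOA4 (-0.46). With library-size scaling 15 of the 20 genes were called higher (75.0%, against 61.7% of all genes) and 0 lower (against 4.53%). The covariate fit called 0 of the 20, against 0 higher and 43 lower of all 8938, and in that fit Cisd1 had 0.011. After thinning to the smallest total the calls of Abcb10 (adjusted p = 0.0602 from edgeR) and Slc22a17 (adjusted p = 0.103 from edgeR) were lost and that of Hmox1 was kept (0.55, adjusted p = 0.0119 from edgeR). Abcb10 was called neither in replicates 1 to 3 nor in replicates 4 to 6 (adjusted p = 0.0779 and 0.253 from edgeR), and the same held for Herc2 (adjusted p = 0.0750 and 0.0604 from edgeR). Slc22a17 lost its call without standard OPC replicate 3, 4 or 6 (adjusted p up to 0.0655 from edgeR), and Cisd1 was not called in replicates 1 to 3 (adjusted p = 0.0837 from edgeR). Hormonal and receptor genes of the list, Hamp (hepcidin), Hjv, Timd2 (a rodent receptor for heavy-chain ferritin), Scara5 (a ferritin receptor) and mitochondrial ferritin Ftmt, had 0 counts in all 12 libraries, which allows up to 0.313 to 2.76 CPM by library. They are named for that reason, after their values were seen.

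Of the genes that build iron-sulphur clusters, a main use of cellular iron, 25 were tested. Of these, 13 were called lower (52.0%, against 17.0% of all genes) and 0 higher (against 7.0%), with a median log2 fold change of -0.49. The 4 with the lowest p were Bola2 (-1.26), a partner of cytosolic glutaredoxin, Ciao2a (-0.76), a targeting factor, Glrx5 (-0.60) and Glrx3 (-0.52), which carry clusters in mitochondria and cytosol. Bola2 had 20.4 to 35.0 CPM under mild hypoxia against 40.5 to 94.8 CPM in room air, without overlap, whereas the ranges of Ciao2a, Glrx5 and Glrx3 overlapped. The scaffold gene Iscu (-0.52), an example chosen after its value was seen, was also called lower. The genes of this list are short, with a median span of 10372 bp and 17 of 25 under 20 kb. With the span trend removed 8 of the 25 were called lower (32.0%, against 12.6% of all genes in that setting). With library-size scaling 5 were called higher (20%, against 61.7%) and 1 lower (4.0%, against 4.53%), and the covariate fit called 0 in either direction, against 43 lower of all 8938 genes. In replicates 1 to 3 alone 1 of the 25 was called lower (4.0%, against 4.01%), and in replicates 4 to 6 alone 13 were (52.0%, against 15.7%).

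Genes of haem synthesis and breakdown went both ways. Of 15 tested, 1 was called higher (Hmox1, also in the iron-handling list; 6.67%, against 7.0% of all genes) and 4 lower (26.7%, against 17.0%), with a median of -0.14. Among the lower genes were Tmem14c (-0.59), a carrier of haem precursors, Blvra (-0.64), which reduces biliverdin, and Pgrmc1 (-0.33), a haem-binding membrane protein. With library-size scaling 6 of the 15 were called higher (40.0%, against 61.7% of all genes) and 0 lower, and Pgrmc1 had 0.099. With the span trend removed 2 were called higher and 2 lower. After thinning the calls of Blvra and Pgrmc1 were lost (adjusted p = 0.0751 and 0.169 from edgeR), and in replicates 1 to 3 alone none of Tmem14c, Blvra and Pgrmc1 was called (adjusted p = 0.140, 0.267 and 0.686 from edgeR). The first enzyme of the pathway, Alas1, had 0.33 (adjusted p = 0.0537 from edgeR), a value named after it was seen.

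The genes whose levels varied most like those of Tf, Tfrc and Fth1 were found by Pearson correlation of log2 CPM over the 12 libraries after the group means were removed, among 6993 genes. The libraries share depth and RNA composition, so these values are descriptions. For Tf they were Aprt (0.94), Acsl5 (0.93) and RGD1308706 (0.93). For Tfrc they were Gab2 (0.97), Rad54l2 (0.94) and Tacc1 (0.92), and for Fth1 they were Snrnp27 (0.96), Cops9 (0.96) and Npb (0.95). The correlation of Fth1 with Ftl1 was 0.81, below these 3. Snrnp27, Cops9 and Npb spanned 10290, 4931 and 3260 bp, and all 3 were called lower in mild-hypo-OPCs (-0.73, -0.89 and -0.75). Gab2, Rad54l2 and Tacc1 each spanned over 60 kb, more than Tfrc itself (21841 bp). Of the genes most like Tf (26710 bp), Aprt spanned 2291 bp and Acsl5 47093 bp, and RGD1308706 had no span. Gab2 was called higher (0.45) and RGD1308706 lower (-0.61), and Aprt, Acsl5, Rad54l2 and Tacc1 were not called.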

How the data were processed

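Total RNA of 12 OPC samples was measured by strand-specific RNA-seq. Per the labels and the study's methods, the authors trimmed reads with Trimmomatic 0.36, aligned them with STAR 2.7.9a to mRatBN7.2 and quantified them with RSEM 1.3.3, and the deposited table holds raw counts by Ensembl gene as whole numbers. Genes above 10 CPM in any 1 library were kept and compared in R 4.3.3 with edgeR 4.0.16 (TMM, quasi-likelihood test, Benjamini-Hochberg adjustment over all genes kept), for which the study used limma-voom. Ratios used counts plus 0.5 and exact permutation tests (SciPy 1.17.1). limma 3.58.1, DESeq2 1.42.0, other scalings and filters, a replicate block and leaving out libraries were alternatives. On simulated counts with 200 of 8938 genes changed, 155 were recovered with 7 false calls. Groups came from the labels. Spans and promoters came from RefSeq (GRCr8) by symbol. The iron genes, lists and tests were chosen with earlier results of these data known. Named from each list are up to 4 called genes per direction with the lowest p, and, for Tf, Tfrc and Fth1, the 3 genes with the highest correlation (at least 50 counts on average per library), and a few genes of the lists are counted but not reported here. Figures were drawn with matplotlib 3.10.9. A count of 3 was the floor.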

Additional observations from a re-analysis of the deposited data

Results flagged for a closer look

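Single libraries stood apart from their group in 3 of 30 sets of 6 values examined, where chance gives about 1 in 20, or 1.5. Tfrc in mild-hypo-OPC replicate 1, at 95.7 CPM, lay above the other 5 libraries of its group, which had 79.8 to 84.0 CPM (gap over range 0.733). In the same library the log2 ratio of Tf to Tfrc, at -1.04, was the lowest of its group (gap over range 0.656), and without it the difference between groups was -0.0072 in place of -0.08. Cp in standard OPC replicate 6, at 22.1 CPM, lay above the other 5 libraries of its group (gap over range 0.732), and without that library the log2 fold change of Cp was 0.41 in place of 0.05, not called in either fit.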

How the results depend on the processing

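Iron genes called higher numbered 0 with TMM scaling, against 7.0% of all genes. They numbered 2 with upper-quartile scaling (12.7% of all genes) and 6 with library size only (61.7%). In replicates 4 to 6 there was 1 (Aco1, 0.44, adjusted p = 0.0495 from edgeR), against 6.48% of all genes. When single libraries were left out there were 0 to 1 (Ireb2, without mild-hypo-OPC replicate 6, against 8.81%). Iron genes called lower numbered 1 with TMM scaling (17.0% of all genes), 2 with limma-voom (16.0%) and 2 with DESeq2 (17.0%). They numbered 0 with library size only (4.53%) and 0 in replicates 1 to 3 (4.01%). With log2 total count as a covariate there were 0 (0.481%), and with the span trend removed 0 (12.6%). Leaving out single libraries gave 1 to 2. There were 2 without replicate 6 of mild-hypo-OPCs (16.5%) or replicate 1 of standard OPCs (18.7%). Directions changed most with the covariate, whose groups differ in depth without overlap: Tfrc -0.30, Fth1 0.015, Ftl1 0.072, Ncoa4 -0.055, Cp -0.21, Aco1 -0.087, Ireb2 -0.0077, Cisd1 0.011, Glrx3 0.037, Glrx5 0.17 and Tmem14c 0.15. With library size only, Fth1 was 0.030, Ftl1 0.22 and Pgrmc1 0.099. Ftl1 was 0.15 and Cp -0.036 with the span trend removed. Tf was -0.21 in replicates 4 to 6 and -0.022 without standard OPC replicate 2. Cp was -0.0012 with DESeq2, -0.64 in replicates 4 to 6, -0.32 when libraries were thinned to the smallest total, -0.05 without mild-hypo-OPC replicate 1, -0.11 without standard OPC replicate 1, -0.05 without replicate 2 and -0.0017 without replicate 5 of that group.

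When single libraries were left out, the log2 ratio of Tfrc to Fth1 differed by 0.41 to 0.63, Fth1 to Ftl1 by -0.23 to -0.16, Tf to Tfrc by -0.21 to 0.024, Aco1 to Ireb2 by -0.026 to 0.13 and Tf to Mbp by -0.35 to -0.12. Tf to Tfrc was 0.026 after thinning and 0.34 in replicates 1 to 3, where Aco1 to Ireb2 was -0.11 and Tf to Mbp 0.15. Comparisons of 3 against 3 libraries cannot reach an exact permutation p below 0.10. Of the listed genes, Slc22a17 lost its call without standard OPC replicate 3, 4 or 6, and Pgrmc1 without replicate 1 or 5 of mild-hypo-OPCs or 5 of standard OPCs. The cause of these changes was not tested.

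Same-numbered libraries of both groups shared only a number (correlations of their deviations from -0.28 to 0.30, and not every library matched its own number best). With the replicate number as a block, 0 iron genes were called higher (6.40% of all genes) and 1 lower (16.5%). Fth1 had -0.40 (adjusted p = 0.00426 from edgeR) in that fit. Mean ratio differences are the same with or without pairing by arithmetic, so they test nothing here. Settings chosen after seeing the data were the removal of the span trend, limma-trend, summing both Ncoa4 rows and the relation of ferritin to depth. Slc40a1, with at most 16 counts per library, and Cp, with as few as 11, had the widest intervals of the 10 genes.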
